A study of Rattus norvegicus with 5 samples.

Results

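A group of 40 genes stood at least 3 times higher in both libraries of striatomesencephalic neurons than in any library of striatopallidal neurons of the rat striatum. The genes were chosen by their measured values in these same 5 libraries. A gene was taken when the lower of the striatomesencephalic libraries SN1 and SN2 held at least 10 CPM (the gene's count over the library total, times 1000000) and at least 3 times the highest value of the striatopallidal libraries SP1, SP2 and SP3. Crym, Tpbg, Lingo2, Nnat, Isl1 and Gabra5 were left out by name, of which Crym, Tpbg, Lingo2 and Nnat also met both thresholds, giving 44 genes with them. The group was drawn from 12039 genes with a symbol, of which 7019 reached 10 CPM in both SN1 and SN2. The 44 genes are 0.365% of the 12039 and 0.627% of the 7019. All differences between the neuron types below are therefore descriptions of the chosen genes and carry no test.

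Medium spiny neurons of the striatum send their axons along a pair of routes. Direct pathway neurons reach the midbrain, carry the D1 dopamine receptor, which raises cyclic AMP, and make dynorphin and substance P. Indirect pathway neurons reach the pallidum, carry the D2 receptor, which lowers cyclic AMP, and make enkephalin. The series profiled polyadenylated RNA of neurons from rat striatum, marked by a tracer from their axonal target and collected by laser capture, in 2 striatomesencephalic and 3 striatopallidal libraries. RNA was reverse transcribed and amplified with a kit made for single cells. The sources used here do not give strain, age, sex, treatment, or the number of cells and animals in a library. Nor is it stated whether libraries came from separate animals, so p-values describe the spread among these libraries alone, which may be technical.

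The best known pathway transcripts differed in the direction of the labels, though those of the direct pathway did not reach the threshold of the group. Drd1 had 861 and 1084 CPM in SN1 and SN2, against 582, 311 and 415 CPM in SP1, SP2 and SP3. Pdyn, the dynorphin precursor, had 1199 and 923 CPM in SN1 and SN2, against 394, 190.3 and 274 CPM in the striatopallidal libraries. Penk, the enkephalin precursor, had 261 and 361 CPM in SN1 and SN2, against 2242, 1259 and 2395 CPM in SP1, SP2 and SP3. The lower striatomesencephalic value exceeded the highest striatopallidal value 1.48-fold for Drd1 and 2.34-fold for Pdyn, so both lay below the 3-fold line. Of 16 listed direct pathway markers, 2 met the rule (Tpbg and Lingo2, both left out by name), and none is among the 40 genes. Totals per library ran from 20845178 to 24805062 counts. SP2 stood apart, with Spearman correlations across genes of 0.785 to 0.820 with the other libraries (0.907 between SP1 and SP3) and 340 symbol-bearing genes at 0 counts against 64 to 152 in the others. SN1 and SN2 correlated at 0.845, below each of them with SP1 (0.870 for SN1, 0.880 for SN2) and with SP3 (0.852 for SN1, 0.861 for SN2), so over all genes the SN libraries were no closer to each other than to SP1 and SP3.

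The 40 genes were mostly of low to middle abundance and fell into several unlike roles. Their median level was 39.3 and 33.4 CPM in SN1 and SN2, against 5.31, 1.25 and 4.08 CPM in SP1, SP2 and SP3. Over the 7019 genes at 10 CPM the medians were 60.1 and 59.3 CPM in SN1 and SN2, against 58.2, 46.6 and 57.6 CPM in SP1, SP2 and SP3. Together the 40 genes took 2379 and 1934 CPM in SN1 and SN2, against 330, 156 and 320 CPM in the striatopallidal libraries. In libraries made from pools of RNA, fewer cells expressing a gene and less of its RNA per cell cannot be told apart. The lower SN value was 100 CPM or more for 4 genes, 50 to 100 CPM for 4, 20 to 50 CPM for 18 and under 20 CPM for 14. The ratio of the lower SN to the highest SP value, called the margin here, had a median of 4.78 and reached 15.7. It was 5 or more for 17 genes, 4 to 5 for 9 and 3 to 4 for 14. The smallest count behind an SN value was 210, and 3 counts correspond to 0.121 to 0.144 CPM, so the SN values lie well above the counting floor, which covers counting error only.

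**Figure D1:**
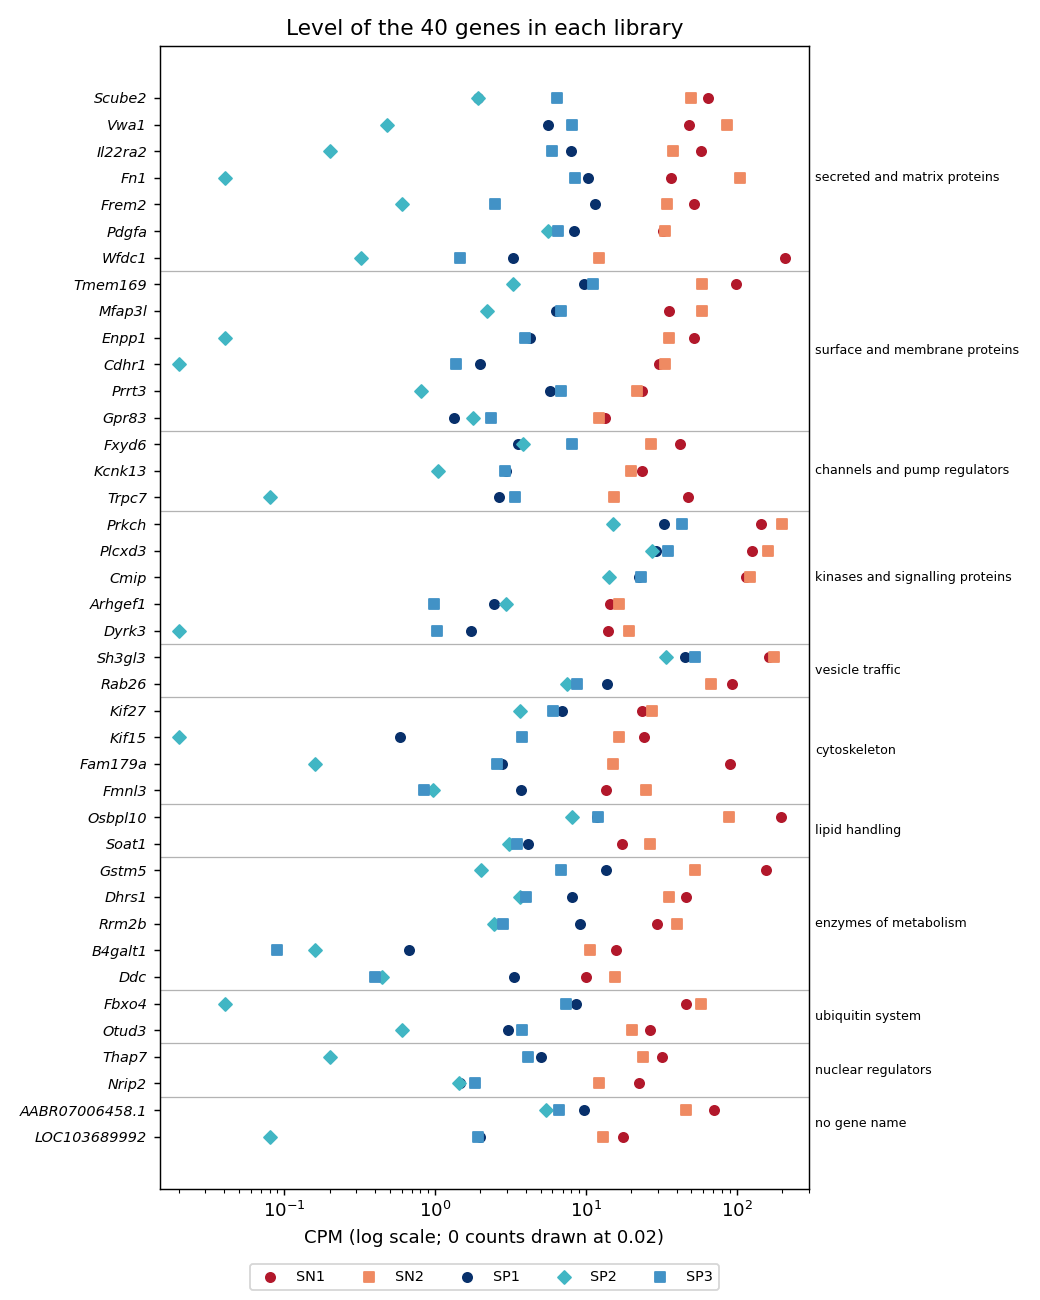
CPM of each of the 40 genes in the 2 striatomesencephalic libraries (SN1 and SN2) and the 3 striatopallidal libraries (SP1, SP2 and SP3), on a log axis, with genes grouped by role; each point is 1 library and points with nearly equal values cover each other. The SN points lie to the right of the SP points in every row because the genes were chosen so, and SP2 is the lowest point in 33 rows.

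**Figure D2:**
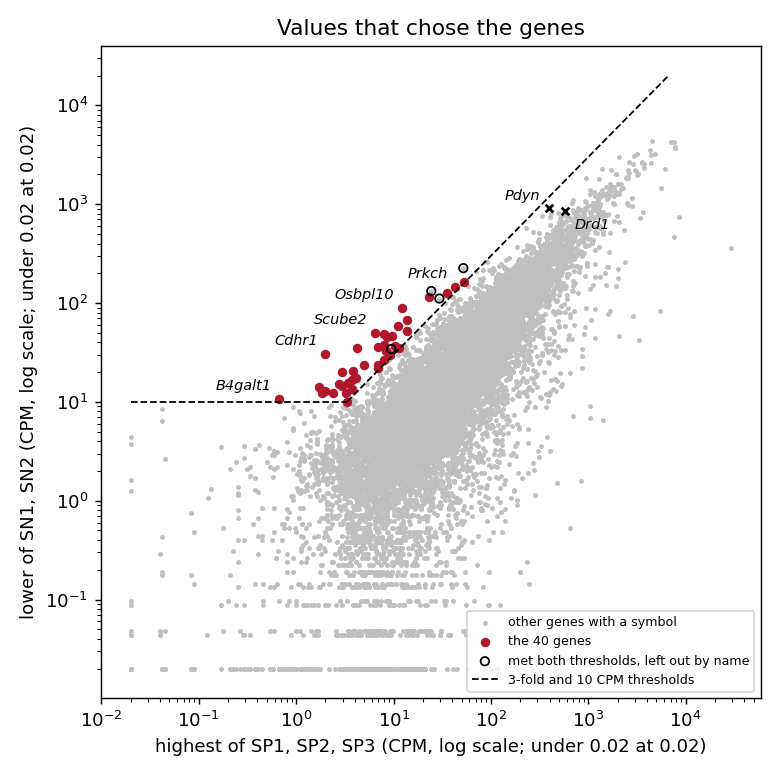
Lower of the 2 SN values against the highest of the 3 SP values, both in CPM on log axes, for the 12039 genes with a symbol; red points are the 40 genes, open circles the 4 genes that met both thresholds but were left out by name, and dashed lines the 3-fold and 10 CPM thresholds. Drd1 and Pdyn, drawn as crosses, lie at higher levels and below the 3-fold line.

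Start-site sequence was read for the genes chosen by their counts, with motifs picked when earlier results of these data were known. RefSeq (build GRCr8) matched 37 of the 40, all protein coding, and gave 32 promoter windows for 29 of them, each from 250 bases before to 50 bases after an annotated start. Fam179a, LOC103689992 and AABR07006458.1 had no match. The windows were searched on both strands for 5 motifs, and 15 of the 29 genes held none. The AP-1 motif TGANTCA and the cyclic AMP response element TGACGTCA are shown because the factors that bind such letters are known to act downstream of cyclic AMP in striatal neurons. Osbpl10 (chr8:123538985-123539284, plus strand), Vwa1 (chr5:171664831-171665130, minus strand), Sh3gl3 (chr1:145533478-145533777, plus strand) and Ddc (chr14:90682734-90683033, minus strand) held the AP-1 letters, and Kif15 (chr8:131479154-131479453, plus strand) held the response element. Sh3gl3 has 1 further annotated window and Ddc has 2, none of which holds AP-1 letters. Capitals mark the motif matches, printed 5′ to 3′ on the strand of the gene.
Osbpl10: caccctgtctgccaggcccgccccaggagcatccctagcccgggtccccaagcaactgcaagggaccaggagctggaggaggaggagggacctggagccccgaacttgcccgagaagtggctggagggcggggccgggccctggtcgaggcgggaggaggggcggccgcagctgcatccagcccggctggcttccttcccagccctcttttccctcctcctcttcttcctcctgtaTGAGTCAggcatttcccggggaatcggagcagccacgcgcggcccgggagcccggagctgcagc
Vwa1: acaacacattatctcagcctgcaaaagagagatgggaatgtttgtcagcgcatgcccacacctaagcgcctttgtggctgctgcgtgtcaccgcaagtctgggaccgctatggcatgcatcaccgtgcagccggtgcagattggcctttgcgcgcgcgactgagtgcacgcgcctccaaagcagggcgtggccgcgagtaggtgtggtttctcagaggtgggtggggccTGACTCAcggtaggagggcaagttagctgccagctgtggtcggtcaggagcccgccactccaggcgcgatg
Sh3gl3: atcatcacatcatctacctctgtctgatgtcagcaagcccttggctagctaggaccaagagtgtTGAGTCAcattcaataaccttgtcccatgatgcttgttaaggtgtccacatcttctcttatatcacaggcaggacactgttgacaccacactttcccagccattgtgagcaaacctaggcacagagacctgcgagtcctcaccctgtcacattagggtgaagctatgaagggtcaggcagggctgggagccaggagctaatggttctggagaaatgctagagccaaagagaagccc
Ddc: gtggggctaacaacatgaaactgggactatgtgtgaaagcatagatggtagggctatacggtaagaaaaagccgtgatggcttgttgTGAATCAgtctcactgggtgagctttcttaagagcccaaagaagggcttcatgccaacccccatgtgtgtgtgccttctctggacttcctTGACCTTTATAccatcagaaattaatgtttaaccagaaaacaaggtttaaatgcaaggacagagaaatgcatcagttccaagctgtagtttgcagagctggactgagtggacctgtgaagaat
Kif15: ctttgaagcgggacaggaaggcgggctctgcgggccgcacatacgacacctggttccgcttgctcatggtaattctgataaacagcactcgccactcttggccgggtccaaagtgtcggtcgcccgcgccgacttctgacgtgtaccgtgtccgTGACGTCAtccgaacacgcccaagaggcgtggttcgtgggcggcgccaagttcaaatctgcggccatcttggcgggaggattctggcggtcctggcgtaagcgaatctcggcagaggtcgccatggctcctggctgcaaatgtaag

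The AP-1 letters began at position -14 in Osbpl10, -21 in Vwa1, -186 in Sh3gl3, -163 in Ddc and -229 in Gstm5, counted from the annotated start. In the Ddc window the second run of capitals joins overlapping matches, the NBRE letters AAAGGTCA read on the opposite strand and the TATA letters TATAAA on that strand too. AP-1 letters were present in 5 of the 32 windows (15.6%), against 4.10% of the 5857 windows of genes at 10 CPM and 7.33% of all 33469 windows. The response element was in 1 window (3.13%, against 3.24% of windows of genes at 10 CPM) and NBRE in 1 (3.13%, against 0.854%). EBF letters CCCNNGGG were in 7 windows (21.9%, against 18.5%) and TATA letters in 3 (9.38%, against 6.37%). Median GC content was 61.3% in the members' windows and 62.0% in those of genes at 10 CPM. These matches describe letters and show no binding, and with 5 or fewer genes per motif outside EBF the shares are coarse.

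The largest role was secreted and matrix proteins, with 7 genes that together had 501 and 359 CPM in SN1 and SN2, against 48.9, 9.19 and 39.5 CPM in SP1, SP2 and SP3. Scube2, a secreted protein that helps release lipid-modified Hedgehog ligand from cells, had 64.2 and 49.7 CPM in SN1 and SN2, against 1.93, 1.94 and 6.47 CPM in SP1, SP2 and SP3. Its margin of 7.69 was the highest of this role, and SP3 was the highest striatopallidal library. Vwa1, a matrix protein with a von Willebrand domain, had 48.4 and 86.1 CPM in SN1 and SN2, against 5.58, 0.484 and 8.08 CPM in SP1, SP2 and SP3. Fn1, which encodes fibronectin, had 36.8 and 105 CPM in SN1 and SN2, against 10.3, 0.0403 and 8.52 CPM in the striatopallidal libraries. The SP2 value of Fn1 was a single count. Frem2, a basement membrane protein, had 52.2 and 34.7 CPM in SN1 and SN2, against 11.5, 0.605 and 2.50 CPM in SP1, SP2 and SP3. Pdgfa, a growth factor subunit, had 32.4 and 33.2 CPM in SN1 and SN2, against 8.35, 5.60 and 6.56 CPM in SP1, SP2 and SP3. The 2 SN libraries were nearest to each other for Pdgfa of all 40 genes, and its SP libraries were also close. Wfdc1, a secreted protein with a whey acidic protein domain, had 209.5 and 12.2 CPM in SN1 and SN2, against 3.27, 0.323 and 1.47 CPM in SP1, SP2 and SP3. Its height therefore came mainly from SN1, and SN2 was 3.74 times the highest striatopallidal value.

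Fibronectin and matrix genes are also made by vascular cells, and the marker sums of other cell types were set beside them. The 11 matched vascular markers summed to 133 and 252 CPM in SN1 and SN2, against 172, 197 and 209 CPM in SP1, SP2 and SP3, with 3 of the 11 higher and 8 lower in striatomesencephalic libraries by the sign of the fitted log2 value. Dcn, a fibroblast marker, had 0.0480 and 0.0442 CPM in SN1 and SN2, which is 1 count each, against 1.51, 0.968 and 13.5 CPM in SP1, SP2 and SP3. It is 1 of the 8 lower markers, and the 3 higher ones are not given by library. The vascular sum was the highest of all libraries in SN2 and the lowest in SN1. Fn1 and Vwa1 were also higher in SN2 than in SN1, while Frem2 and Scube2 were higher in SN1. All 6 matched microglial markers had negative log2 values, with sums of 125 and 116 CPM in SN1 and SN2, against 243, 62.9 and 191 CPM in the striatopallidal libraries. Other lists went either way. Positive and negative log2 values numbered 9 and 7 for astrocyte markers, 3 and 1 for cortical glutamatergic markers and 8 and 3 for motile cilium genes. They numbered 3 and 10 for oligodendrocyte markers, 4 and 5 for interneuron markers, and 1 and 1 for ependymal markers. The motile cilium genes summed to 225 and 234 CPM in SN1 and SN2, against 103, 107 and 119 CPM in SP1, SP2 and SP3. The part of other cells in the levels of the 40 genes was not tested.

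Surface and membrane proteins made up 6 of the genes, which together had 254 and 221 CPM in SN1 and SN2, against 29.4, 8.10 and 32.5 CPM in SP1, SP2 and SP3. Cdhr1, a cadherin best known from photoreceptors, had 30.4 and 33.7 CPM in SN1 and SN2, against 1.97, 0 and 1.38 CPM in SP1, SP2 and SP3. Its SN libraries were close, no count was found in SP2, and its margin of 15.4 was second in size among the 40 genes. Enpp1, a cell-surface pyrophosphatase that cleaves extracellular nucleotides, had 52.4 and 35.3 CPM in SN1 and SN2, against 4.24, 0.0403 and 3.93 CPM in the striatopallidal libraries. SP1 and SP3 nearly coincided for Enpp1 and SP2 held 1 count. Tmem169, a membrane protein, had 98.7 and 59.1 CPM in SN1 and SN2, against 9.65, 3.27 and 11.1 CPM in SP1, SP2 and SP3. Gpr83, a G protein-coupled receptor of the brain, had 13.4 and 12.2 CPM in SN1 and SN2, against 1.34, 1.77 and 2.36 CPM in the striatopallidal libraries. Prrt3, a proline-rich membrane protein, had 23.4 and 21.8 CPM in SN1 and SN2, against 5.79, 0.806 and 6.87 CPM in SP1, SP2 and SP3. The SN values of Gpr83 and Prrt3 were close, with SN1 at 1.10 times SN2 for Gpr83 and 1.07 times for Prrt3, while the SP2 value stood apart for Prrt3 and not for Gpr83.

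Among channels and pump regulators there were 3 genes. Kcnk13, the tandem-pore potassium channel THIK-1, had 23.4 and 19.99 CPM in SN1 and SN2, against 2.94, 1.05 and 2.90 CPM in SP1, SP2 and SP3. All striatopallidal libraries were low for Kcnk13, and its margin was 6.81. Trpc7, a cation channel opened by diacylglycerol, had 47.5 and 15.4 CPM in SN1 and SN2, against 2.64, 0.0806 and 3.39 CPM in SP1, SP2 and SP3. SN1 was 3.09 times SN2 for Trpc7, and SP2 held 2 counts. Fxyd6, a regulator of the sodium pump, was the third, with a margin of 3.32.

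Kinases and signalling proteins numbered 5 and together had 416 and 519 CPM in SN1 and SN2, against 88.6, 59.5 and 104 CPM in SP1, SP2 and SP3. Prkch, a protein kinase C isoform, had 145 and 199.8 CPM in SN1 and SN2, against 32.8, 15.04 and 43.3 CPM in SP1, SP2 and SP3. Plcxd3, which carries a phospholipase C X domain, had 126 and 161 CPM in SN1 and SN2, against 29.1, 27.3 and 35.2 CPM in the striatopallidal libraries. Cmip, a signalling adaptor first named for inducing the c-Maf factor, had 116 and 122 CPM in SN1 and SN2, against 22.5, 14.3 and 23.0 CPM in SP1, SP2 and SP3. For each of these genes all 5 libraries were far above the floor, and SP2 was the lowest of them. Dyrk3, a kinase that dissolves condensates, had 14.0 and 19.2 CPM in SN1 and SN2, against 1.72, 0 and 1.03 CPM in SP1, SP2 and SP3. Arhgef1, a guanine nucleotide exchange factor that acts downstream of G protein-coupled receptors, had 14.3 and 16.6 CPM in SN1 and SN2, against 2.47, 2.94 and 0.982 CPM in SP1, SP2 and SP3. Arhgef1 was the only one of the 40 genes with SP2 as its highest striatopallidal library.

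In vesicle traffic, Sh3gl3, the endophilin A3 that acts in synaptic vesicle endocytosis, had 163 and 178 CPM in SN1 and SN2, against 45.4, 33.8 and 53.1 CPM in SP1, SP2 and SP3. It was the most abundant of the 40 genes in every striatopallidal library, and its margin of 3.07 was among the smallest. Rab26, a small GTPase of secretory and synaptic vesicles, had 93.6 and 67.2 CPM in SN1 and SN2, against 13.9, 7.50 and 8.79 CPM in SP1, SP2 and SP3. The groups were apart by a margin of 4.84 for Rab26, and no striatopallidal library was near 0.

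Lipid handling was represented by Osbpl10 and Soat1. Osbpl10, an oxysterol-binding protein relative, had 197 and 89.3 CPM in SN1 and SN2, against 11.8, 8.06 and 12.1 CPM in SP1, SP2 and SP3. SN1 was 2.21 times SN2 for Osbpl10, and the striatopallidal libraries lay close together. Osbpl10 was the one gene of a list of 24 sterol and lipid transfer genes to meet the rule. Of the 23 fitted genes of that list, 13 had a positive and 10 a negative log2 value (striatomesencephalic minus striatopallidal), with a median of 0.21 against -0.06 over all 13811 genes fitted. Soat1, which esterifies cholesterol, had a margin of 4.20.

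Among the 5 enzymes of metabolism, B4galt1, a Golgi galactosyltransferase, had 15.9 and 10.6 CPM in SN1 and SN2, against 0.671, 0.161 and 0.0892 CPM in SP1, SP2 and SP3. Its margin of 15.7 was the highest of the 40 genes, on 16, 4 and 2 counts in the striatopallidal libraries. Gstm5, a glutathione transferase, had 157 and 52.5 CPM in SN1 and SN2, against 13.6, 2.02 and 6.83 CPM in SP1, SP2 and SP3. Glutathione transferases of this class are close in sequence, and how reads that fit several of them were counted is not stated, so the level of Gstm5 is uncertain. Ddc, the decarboxylase that makes dopamine and serotonin, had 10.1 and 15.7 CPM in SN1 and SN2, against 3.36, 0.443 and 0.402 CPM in SP1, SP2 and SP3. Ddc sat at both thresholds, with a margin of 3.003 and a lower SN value of 10.1 CPM, and it did not meet the rule after TMM scaling or with DESeq2 size factors. Slc18a2, the vesicular monoamine transporter and the only other matched gene of the list of midbrain and pallidal neuron markers, had 65.9 and 68.8 CPM in SN1 and SN2, against 60.1, 34.3 and 46.6 CPM in SP1, SP2 and SP3, a margin of 1.10.

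The cytoskeletal genes were 4. Kif27, a kinesin linked to cilia, had 23.5 and 27.4 CPM in SN1 and SN2, against 6.92, 3.63 and 6.07 CPM in SP1, SP2 and SP3. Kif15, a kinesin of the mitotic spindle that is also present in neurons, had 24.3 and 16.6 CPM in SN1 and SN2, against 0.587, 0 and 3.75 CPM in the striatopallidal libraries. The symbol family of dyneins, kinesins and coiled-coil proteins held these 2 of the 40 genes (5%), against 0.855% of the 7019 genes at 10 CPM. Fam179a, a microtubule-associated protein, had 90.6 and 15.2 CPM in SN1 and SN2, against 2.77, 0.161 and 2.59 CPM in SP1, SP2 and SP3. SN1 was 5.95 times SN2 for Fam179a. Of the ubiquitin system, Fbxo4, a substrate receptor of an SCF ligase, had 45.8 and 58.1 CPM in SN1 and SN2, against 8.60, 0.0403 and 7.41 CPM in SP1, SP2 and SP3. Otud3, a deubiquitinase, had 26.5 and 20.3 CPM in SN1 and SN2, against 3.06, 0.605 and 3.79 CPM in the striatopallidal libraries. SP1 and SP3 were alike and SP2 far lower for both. Genes of the ubiquitin families were 5% of the 40 and 2.45% of the 7019.

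Of the 2 nuclear regulators, Nrip2, which binds nuclear receptors, had 22.5 and 12.2 CPM in SN1 and SN2, against 1.47, 1.45 and 1.83 CPM in SP1, SP2 and SP3. SP2 did not stand apart for Nrip2. Genes without a name were LOC103689992, with 17.7 and 12.9 CPM in SN1 and SN2 against 1.97, 0.0806 and 1.92 CPM in SP1, SP2 and SP3, and AABR07006458.1, with 70.2 and 46.1 CPM in SN1 and SN2 against 9.65, 5.44 and 6.60 CPM in SP1, SP2 and SP3. By symbol, no zinc finger, solute carrier or cytosolic ribosomal protein gene was in the group, families that are 1.45%, 1.74% and 0.784% of the 7019 genes, so nothing is read from their absence among 40. The genes not given by library here, Dhrs1, Fmnl3, Fxyd6, Il22ra2, Mfap3l, Rrm2b, Soat1 and Thap7, had lower SN values of 13.6 CPM (Fmnl3) to 37.9 CPM (Il22ra2) and margins of 3.23 (Rrm2b) to 5.17 (Mfap3l). They include the decoy receptor of interleukin 22 (Il22ra2), a formin (Fmnl3), a ribonucleotide reductase subunit (Rrm2b) and a THAP-domain repressor (Thap7).

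In the RefSeq annotation (GRCr8), 14 of the 37 matched genes overlap another annotated gene, among them Kif27 with Kif27l1, Prrt3 with Creld1 and Ddc with Fignl1. Whether the counting used strand is not stated, so reads of such partners cannot be told apart. The genes were spread over the genome, and 1 pair, Fbxo4 and Plcxd3, lay within 10 genes of each other, 4 genes apart. Fbxo4 was at 1 count in SP2, whereas Plcxd3 had 676 counts there.

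SN1 and SN2 differed more than 1.5-fold for 18 of the 40 genes (45%), against 49.6% of the 7019 genes at 10 CPM. SN1 was the higher for 23 (57.5%, against 51.0% of the 7019), and the median fold between them was 1.43, against 1.49 over the 7019 genes at 10 CPM. They differed more than 2-fold for 6 genes (15%, against 26.8% of the 7019) and more than 3-fold for Wfdc1 (17.1), Fam179a (5.95) and Trpc7 (3.09). The rule itself asks both libraries to be high, which bears on this spread. Pdgfa, Cmip, Prrt3, Sh3gl3 and Gpr83 were the most even.

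The striatopallidal libraries were uneven, because SP2 was often far lower than SP1 and SP3. SP2 was the lowest striatopallidal library for 33 of the 40 genes (82.5%), against 55.4% of the 7019. It lay under 1 CPM for 19 genes (47.5%, against 1.98% of the 7019). The same held for 2 genes in SP1 (5%, against 0.0427%) and 4 in SP3 (10%, against 0.0997%). Cdhr1, Dyrk3 and Kif15 had no count in SP2 (7.5%, against 0.0570% of the 7019). For 14 genes (35%, against 7.66% of the 7019) SP2 was under 1/5 of the lower of SP1 and SP3. These were Cdhr1, Enpp1, Dyrk3, LOC103689992, Vwa1, Fam179a, Otud3, Fbxo4, Il22ra2, Thap7, Trpc7, Kif15, Fn1 and Prrt3. The rule itself holds all striatopallidal values low, while the 7019 genes were not chosen so, which bears on these shares. SP1 and SP3 lay within 2-fold of each other for 29 genes, with a median fold of 1.30. The same values over the 7019 genes are not given here, and this pair had the highest correlation over all genes (0.907). The margin was set by SP1 in 23 genes and by SP3 in 16, so SP2 entered it for Arhgef1 alone. Without SP2 the thresholds took 49 genes, with all 40 among them, since leaving out a striatopallidal library can only add genes.

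**Figure D3:**
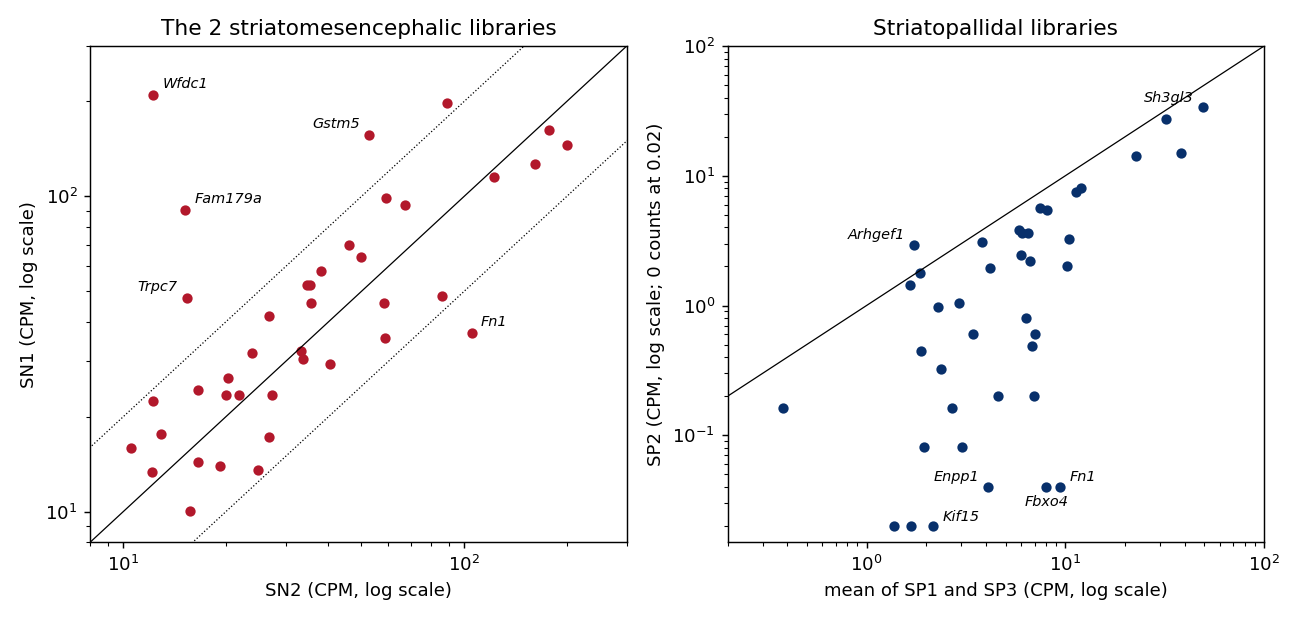
CPM of the 40 genes on log axes, with SN1 against SN2 on the left (solid line, equal values; dotted lines, 2-fold) and SP2 against the mean of SP1 and SP3 on the right (line, equal values; 0 counts drawn at 0.02 CPM). Wfdc1, Fam179a, Gstm5, Trpc7, Osbpl10 and Fn1 lie outside the 2-fold lines on the left, and most points lie below the line on the right.

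The number of genes rested on both SN libraries. By SN1 alone 426 genes met both thresholds and by SN2 alone 400, and the 44 in both lists are 10.3% of the SN1 list and 11% of the SN2 list. Without SN1 the count of the group was 394, without SN2 it was 422, without SP1 it was 126 and without SP3 it was 73. The same thresholds in the opposite direction, with all 3 striatopallidal libraries at 10 CPM or more and 3 times the higher SN value, took 33 genes. Just inside the fold threshold were Ddc at 3.003, Frem2 at 3.02 and Sh3gl3 at 3.07, and just outside it were Numbl at 2.98, Igsf1 at 2.97 and Pde9a at 2.96. Numbl, an adaptor related to Numb, had 210.5 and 1739 CPM in SN1 and SN2, against 70.7, 33.4 and 51.4 CPM in SP1, SP2 and SP3. Just inside the level threshold were Ddc at 10.1, B4galt1 at 10.6 and Gpr83 at 12.2 CPM in the lower SN library, and just outside it Ssc5d at 9.24, Pcdhga9 at 8.87 and Znrd1as1 at 8.83 CPM.

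The same rule was applied to every other way of taking 2 libraries as the high group and the remaining 3 as the low group, with no gene left out by name. SN1 with SN2 gave 44 genes. The other 9 groupings gave 17 to 50, with a median of 25, and 1 of them was at or above 44. That grouping was SP1 with SP3, at 50 genes, the pair with the highest correlation between libraries. SN1 with SP2 gave 34 genes and SN2 with SP3 gave 32. The pairs SN1 with SP1 and SN2 with SP2 gave 25 genes each. SN1 with SP3, SN2 with SP1 and SP1 with SP2 gave 24 each, and SP2 with SP3 gave 17. The labelled grouping was thus second of the 10 by count, with the count for SP1 with SP3 above it. The number of genes at 10 CPM or more in both libraries differed between pairs. As a share of those genes, SP1 with SP3 took 0.661%, SN1 with SN2 0.627% and SN1 with SP2 0.541%. The remaining pairs took 0.267% (SP2 with SP3) to 0.447% (SN2 with SP3). In the SP1 with SP3 grouping SP2 was the lowest of the remaining libraries for 30 of the 50 genes, and in the SN1 with SN2 grouping for 35 of the 44. The share over the 7019 genes was 55.4% for the SN1 with SN2 grouping. For SP1 with SP3 no such share is given here, so nothing is read from its count.

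**Figure D4:**
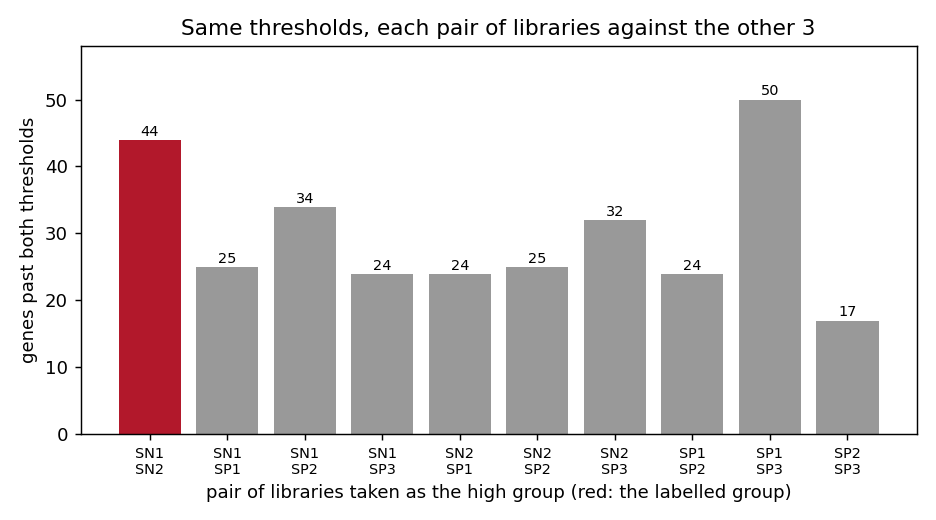
Number of genes at 10 CPM or more and at least 3-fold higher in both libraries of a pair than in the other 3 libraries, for each of the 10 pairs of libraries; bars start at 0. SN1 with SN2 stands at 44, SP1 with SP3 at 50 and the other 8 pairs between 17 and 34.

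Fitted over the whole table with edgeR's quasi-likelihood method, the 40 genes had log2 differences (striatomesencephalic minus striatopallidal) of 1.89 to 6.08, with a median of 3.26, against a median of -0.06 over the 13811 genes fitted. Standard errors (SE) were back-calculated, as the absolute log2 value over the square root of the test's F statistic, and were not estimated by edgeR itself. Osbpl10 had 3.69 ± 0.57 (SE), Prkch 2.50 ± 0.52, Cmip 2.53 ± 0.49 and Sh3gl3 1.89 ± 0.43, each among the smaller errors. Kif15 had 3.87 ± 1.71 and Dyrk3 4.27 ± 1.57, both with wide errors. Both genes had 0 counts in SP2 and low striatopallidal counts, where the size depends on the prior count. Wide errors did not follow low counts alone. B4galt1, at 16, 4 and 2 counts in SP1, SP2 and SP3, had 5.41 ± 1.21, and Fbxo4, at 205, 1 and 166, had 3.37 ± 1.44. The edgeR test called 0 of 13811 genes at an adjusted p of 0.05 (0% called), and the smallest adjusted p of any of the 40 was 0.779. At an unadjusted p under 0.05 the test gave 839 genes, 38 of the 40 among them. limma voom also called 0 genes. DESeq2 called 87 of 12919 genes as higher in striatomesencephalic libraries (0.673%), and 28 of the 40 were among its calls. Since the contrast that chose the genes is the one fitted, nothing is read from these shares. By construction the SN values of all 40 lay above all SP values, as they did for 11.2% of the 13811 genes.

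In the authors' deposited table the log2 fold change runs the other way, as striatopallidal over striatomesencephalic. All 40 genes are negative in the authors' deposited table, from -6.83 to -2.00 with a median of -3.69, against a median of -0.15 over its 12054 genes. The authors' deposited table gives an unadjusted p under 0.05 for all 40, and the share over its 12054 genes is not given here. The smallest adjusted p among the 40 is 0.927, and no gene of the 12054 is under an adjusted p of 0.05. The contrast of that table is the one that chose the genes, so nothing is read from these values.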

How the data were processed

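RNA of laser-captured rat striatal neurons was sequenced in 5 libraries, 2 striatomesencephalic and 3 striatopallidal, grouped by the cell type in the labels. The authors deposited raw read counts for 32285 gene identifiers per library. The submitters' processing notes name TopHat2, HTSeq, edgeR, limma and build Rnor_6.0; versions and the use of each tool are not stated there. Gene symbols came from the authors' deposited comparison, which holds log2 fold changes, p-values (raw and adjusted) and limma's t and B scores for 12054 genes, 15 of them without a symbol. The scores and the tables of normalized values were not used.

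CPM was the deposited count over the library total, times 1000000. Totals were 20845178 and 22614680 in SN1 and SN2, and 23843228, 24805062 and 22413168 in SP1, SP2 and SP3. No molecular identifiers are mentioned in the labels, so the floor of 3 counts covers counting error only. Deposited counts were fitted with edgeR 4.0.16 in R 4.3.3 (filterByExpr, TMM, glmQLFit, glmQLFTest, Benjamini-Hochberg threshold 0.05), tested first on simulated counts, with DESeq2 1.42.0 and limma 3.58.1 voom as alternatives. The simulated counts had a single set dispersion for all genes, not estimated from these libraries. They checked the code and do not show how the test performs on these libraries. Counts in other groupings of libraries are descriptions with no p.

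The members, the 25 gene lists, the symbol families and the motifs were chosen with earlier results of these data known. Roles were assigned after the members were seen. Values by library are given for members in a list or symbol family, the 10 most abundant, the 10 with the largest margin, the 5 most and 5 least even between SN1 and SN2, and those next to a threshold. Other members are summarised. Promoter windows and annotation are from RefSeq GRCr8, matched by symbol.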

Additional observations from a re-analysis of the deposited data

How the results depend on the processing

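The count of 40 genes was 50 after TMM scaling or with DESeq2 size factors (39 of the 40 among them, Ddc lost), 40 with the normalization factor in the labels or with all identifiers, 44 with the named genes kept and 54 at a level of 5 CPM. It was 118 at a fold of 2, 26 at a fold of 4, 26 at a level of 20 CPM, 107 with no level and 650 on group means. With 1 library left out it ran from 49 to 422. Fewer libraries or looser thresholds can only add genes. In the test across all genes, DESeq2 called 226, while 0 were called by edgeR with other size factors, with no filter on low counts, with any 1 library left out, and by limma voom. Labels of both groups share replicate numbers 1 and 2, but same-numbered libraries did not deviate together (r = -0.02 and -0.03 across genes), and with a replicate block edgeR called 0 genes (465 at an unadjusted p under 0.05). The highest striatopallidal value behind a margin rested on as few as 16 counts (B4galt1).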
